A study of Mus musculus with 2 samples.

Results

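The miR-26 microRNA family of mouse hippocampus was described through its 3 genes, Mir26a-1, Mir26a-2 and Mir26b, which were matched by gene name to tables of read counts for 2202 annotated microRNA (miRNA) genes. The family was chosen by a measured value, the counts of Mir26a-1 in the 2 libraries, which lie far apart, so every value that sets one library against the other is given as a description, with no test. The libraries are biological replicates 1 and 2 of a single group. They hold small RNA below 30 nt from a layer of the hippocampus of adult female mice, 8 to 10 months old, of the strain labelled 5xFAD/CAST. A neuronal Thy1 promoter drives the 5xFAD transgenes, which hold familial Alzheimer's disease mutations, and CAST is a wild-derived inbred strain. The labels give both libraries the same donor entry and do not say whether animals were pooled. The spread between the libraries may therefore be partly technical. There is no group without the transgenes, no second age and no second tissue, so no effect of genotype or age can be read from these values.

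MicroRNAs are cut from hairpin precursors, first by Drosha in the nucleus and then by Dicer in the cytoplasm, and each hairpin can yield a mature RNA from its 5p and its 3p arm. Pairing between the seed, bases 2 to 8 of the mature RNA, and a messenger RNA largely decides which transcripts an Argonaute-bound miRNA represses. The miR-26 family is widely expressed in differentiated tissue, where its known targets include the histone methyltransferase gene Ezh2. Its host genes Ctdspl, Ctdsp2 and Ctdsp1 encode small phosphatases that act on the C-terminal domain of RNA polymerase II and serve as cofactors of REST, the repressor of neuronal genes outside neurons. In zebrafish neuronal differentiation miR-26b represses Ctdsp2, a host of the same family.

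The mature arms are shown because all family members share the 5p seed while only Mir26a-1 and Mir26a-2 share a whole arm. Sequences are those of RefSeq on GRCm38.p6, written 5′ to 3′, with the seed in capitals.
miR-26a-5p, from Mir26a-1 and from Mir26a-2: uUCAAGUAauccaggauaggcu
miR-26b-5p, from Mir26b: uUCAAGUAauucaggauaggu
miR-26a-1-3p, from Mir26a-1: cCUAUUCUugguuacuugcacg
miR-26a-2-3p, from Mir26a-2: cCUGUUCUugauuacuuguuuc
miR-26b-3p, from Mir26b: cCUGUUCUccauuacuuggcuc
Over the 21 bases both have, miR-26b-5p differs from miR-26a-5p by C11U and C21U, counted from 1 at the 5′ end with the miR-26a base first. The 3p seed CUGUUCU is common to Mir26a-2 and Mir26b, and the 3p arm of Mir26a-1 differs from it by A4G. Between the 3p arms of Mir26a-1 and Mir26a-2 there are 6 differences in 22 bases. In the sequence table no counted gene outside the family had the 5p seed. The 3p seed CUGUUCU also occurs in Mir7039, with 4 counts in each library, and in Mir6932, with 0 in both.

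The stretch of 29 bases from the start of the 5p arm, the longest RNA below 30 nt, shows how far a 5p read must reach to be placed on 1 gene. Capitals mark bases that differ from Mir26a-1 at the same position.
Mir26a-1: uucaaguaauccaggauaggcugugcagg
Mir26a-2: uucaaguaauccaggauaggcugugUCCg
Mir26b: uucaaguaauUcaggauaggUugugGUgC
The 2 Mir26a hairpins are identical for 25 bases from that start, 3 bases past the end of the mature arm, and first differ at base 26. A read that starts there and ends within 25 bases is therefore the same from both genes. Of all windows of 22 bases, 4 of 69 in the Mir26a-1 hairpin and 4 of 63 in the Mir26a-2 hairpin also occur in another hairpin of the table, against 0 of 64 for Mir26b. The tables give 1 count per gene, so reads of the 5p and of the 3p arm were not told apart.

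**Figure D1:**
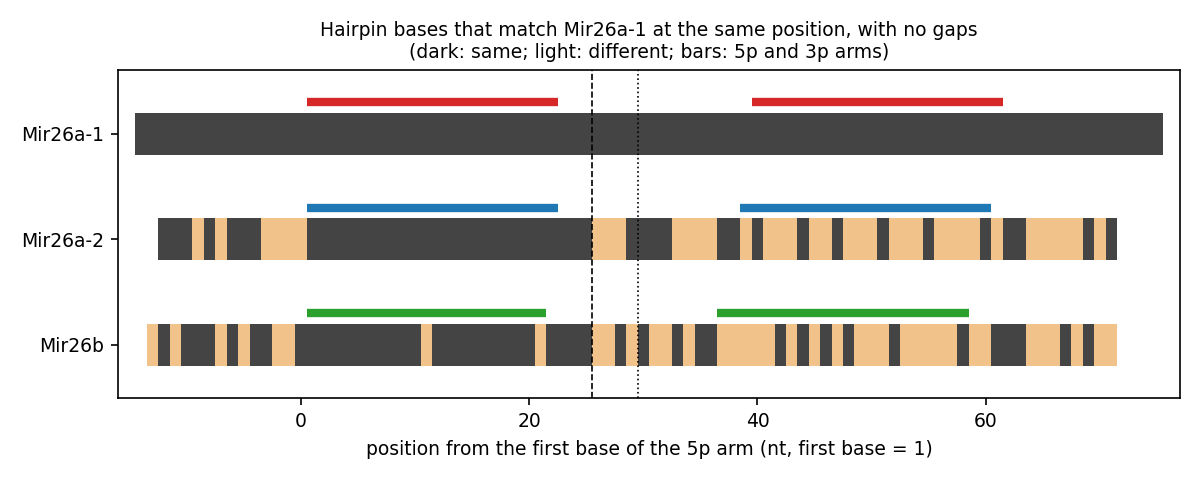
The 3 hairpins are aligned without gaps at the first base of the 5p arm (horizontal axis, nt), with dark bases equal to Mir26a-1 at the same position, light bases different, and bars for the 5p and 3p arms. The dashed line follows base 25, where the identity of the 2 Mir26a hairpins ends, and the dotted line follows base 29; without gaps, bases beyond the loop are out of register because the loops between the arms have 17, 16 and 15 bases.

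The genes lie in introns of 3 related hosts, all on the plus strand, in the M21 annotation of mm10. Mir26a-1 (ENSMUSG00000065513.1, chr9:119031796-119031885) lies in intron 5 of 7 of Ctdspl, 1543 bases after one exon and 1650 before the next. Mir26a-2 (ENSMUSG00000065430.1, chr10:126995530-126995613) lies in intron 5 of 7 of the principal Ctdsp2 transcript, 241 bases before the next exon. Its last base is also the first base of 2 shorter annotated Ctdsp2 transcripts, Ctdsp2-201 and Ctdsp2-203, where it is exonic. Ctdsp2-201 is annotated as protein-coding and Ctdsp2-203 as a retained intron. Mir26b (ENSMUSG00000065468.1, chr1:74394310-74394394) lies in intron 4 of 6 of Ctdsp1, an intron of 564 bases, with 234 bases before it and 245 after it. The hosts differ in size, with 117.5 kb for Ctdspl, 21.3 kb for Ctdsp2 and 5.78 kb for Ctdsp1. No further annotated gene overlaps any of the 3. The nearest other annotated miRNA gene to Mir26a-2, Mir546 at 2.83 kb, had 0 counts in both libraries. Messenger RNA of the hosts was not measured here.

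**Figure D2:**
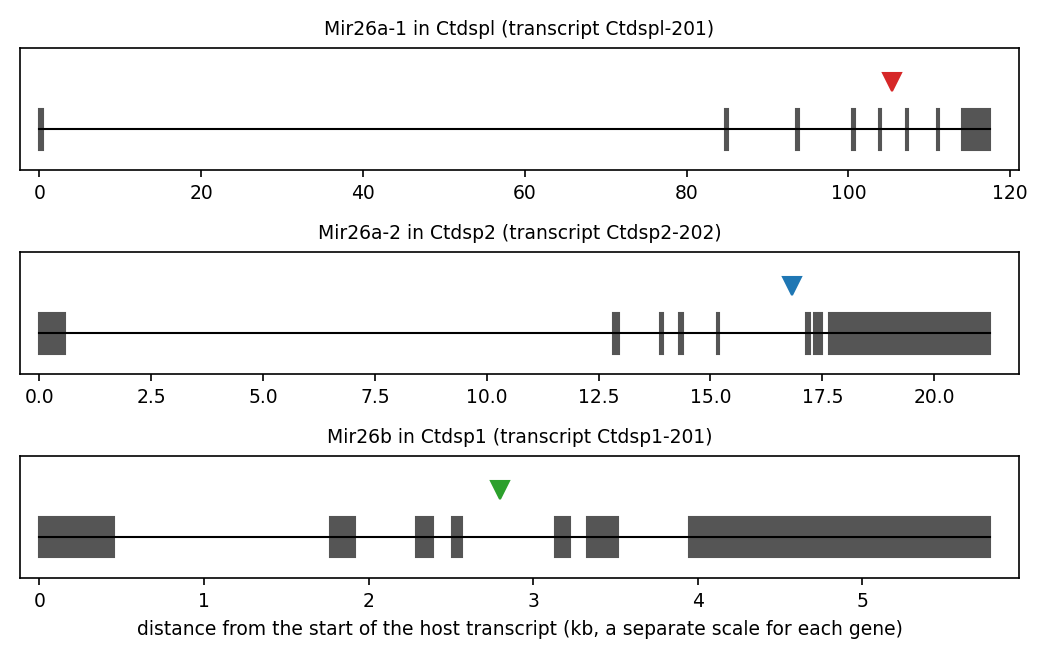
Principal host transcripts are drawn with exons as boxes along the distance from the transcript start (kb, a separate scale for each host), and a triangle marks each miRNA gene. Mir26a-1 sits 105 kb into Ctdspl, Mir26a-2 16.8 kb into Ctdsp2 and Mir26b 2.80 kb into Ctdsp1.

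Replicate 1 held 9962659 reads and replicate 2 held 12761689, and 3135960 and 4377622 of them fell on the annotated strand of miRNA genes. Levels are given in CPM, each count scaled to 1e6 of these assigned counts, with exact Clopper-Pearson 95% intervals that cover counting error only, since PCR copies are not independent molecules. A read stands for 1 small RNA whatever the length of its hairpin, so CPM was not divided by length. Reads at several genomic positions were kept apart by the authors in a line of their own with 3615399 reads in replicate 1 and 5325889 in replicate 2, or 36.3% and 41.7% of all reads. How many of them carry miR-26a-5p is not recorded in the tables. Of the neuronal markers, 7 of 10 had at least 10 counts in each library, against 17.4% of all annotated genes. The list summed to 34431 and 33008 CPM in replicates 1 and 2, with Mir132 alone at 21687 and 13106 CPM. The 3 Mir124a genes, also on that list and also copies of each other, held at most 8 counts in a library.

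Mir26b supplied nearly all counts assigned to the family. Reads at several genomic positions are not among these counts. A read from the start of the 5p arm is the same from both Mir26a genes up to 25 bases. The shares and folds here and below therefore compare assigned counts per gene, not amounts of mature miR-26a and miR-26b. It had 27176 counts in replicate 1 and 50102 in replicate 2, or 8666 CPM (8564 to 8769) and 11445 CPM (11346 to 11545). The mean was 10056 ± 1965 CPM (SD, n = 2), rank 20 of 2202 genes. Within the family, Mir26b held 97.0% of the assigned counts in replicate 1 (96.8% to 97.2%) and 99.5% in replicate 2 (99.4% to 99.5%). The neighbours in rank, Mir433 at 10274.5 ± 1432 and Mir191 at 10049.9 ± 886 CPM, differed from Mir26b by less than its SD. Both libraries thus placed Mir26b in a narrow band, at rank 22 in replicate 1 and rank 19 in replicate 2. The whole family held 0.893% of the assigned counts in replicate 1 (0.883% to 0.904%) and 1.15% in replicate 2 (1.14% to 1.16%).

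Mir26a-2, in the Ctdsp2 intron, had nearly the same raw count in both libraries, but a lower CPM in replicate 2, the deeper library. It had 244 counts in replicate 1 and 249 in replicate 2, or 77.8 CPM (68.4 to 88.2) and 56.9 CPM (50.0 to 64.4). The mean was 67.3 ± 14.8 CPM (SD, n = 2), rank 222. By assigned counts, Mir26b was 111-fold above it in replicate 1 and 201-fold in replicate 2. Its neighbours in rank were Mir29b-1 at 68.5 ± 1.30 and Mir10b at 67.3 ± 50.9 CPM, both within the SD of Mir26a-2.

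Mir26a-1, in the Ctdspl intron, was the member that set the libraries apart. It had 592 counts in replicate 1 and 23 in replicate 2, or 189 CPM (174 to 205) and 5.25 CPM (3.33 to 7.88). Its mean of 97.0 CPM had an SD of 129.8 (n = 2), larger than the mean itself, and each library alone gives its own value, far from that mean. By rank it was gene 168 in replicate 1 and gene 361 in replicate 2. A level of 5.25 CPM was still above the 0.685 CPM that a count of 0 would have allowed there. The order of the 2 Mir26a copies therefore turned between the libraries. Mir26a-1 was 2.43-fold above Mir26a-2 in replicate 1 (2.09 to 2.83) and at 0.0924 of it in replicate 2 (0.0575 to 0.142). Of the counts of both Mir26a genes together, Mir26a-1 held 70.8% in replicate 1 (67.6% to 73.9%) and 8.46% in replicate 2 (5.44% to 12.4%). In order of mean CPM of assigned counts, Mir26b stood above both copies beyond the SDs, while Mir26a-1 and Mir26a-2 did not differ beyond theirs.

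**Figure D3:**
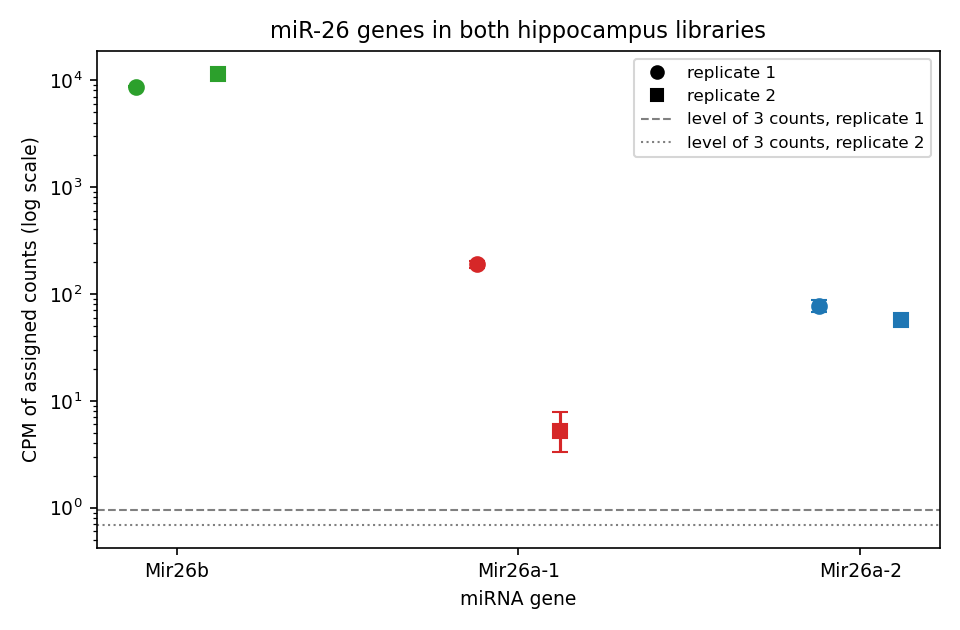
CPM of assigned counts (log axis) is plotted for each gene and library, circles for replicate 1 and squares for replicate 2, with exact 95% counting intervals and lines at the level of 3 counts. Mir26b and Mir26a-2 have their 2 points close together, and Mir26a-1 spans 189 to 5.25 CPM.

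All counts of the 3 genes lay on the annotated strand. The other strand held 0 counts at each of them, and the count made without regard to strand was the same as that on the annotated strand. Over all genes, 93.4% of stranded counts in replicate 1 and 91.9% in replicate 2 were on the annotated side.

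Set against each other, the libraries gave a ratio of replicate 1 to replicate 2 of 35.9 for Mir26a-1 (23.7 to 57.1), 1.37 for Mir26a-2 (1.14 to 1.64) and 0.757 for Mir26b (0.746 to 0.768). On the log2 scale these are 5.17, 0.45 and -0.40. Of 459 genes with at least 10 counts in either library, 21.8% were more than 2-fold apart, 8.28% with replicate 1 higher and 13.5% with replicate 2 higher. Of the miR-26 genes 1 of 3 was past that limit, the one the choice rests on. The median log2 ratio of all 459 genes was -0.10 and the median of its size 0.43. Among these genes Mir26a-1 had the widest ratio in either direction, and 217 genes had a wider ratio than Mir26a-2 and 243 a wider one than Mir26b. The genes that came next in width, named after their values were seen, were Mir301 with 57 and 1538 counts (log2 ratio -4.27) and Mir141 with 62 and 5 counts (4.11).

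**Figure D4:**
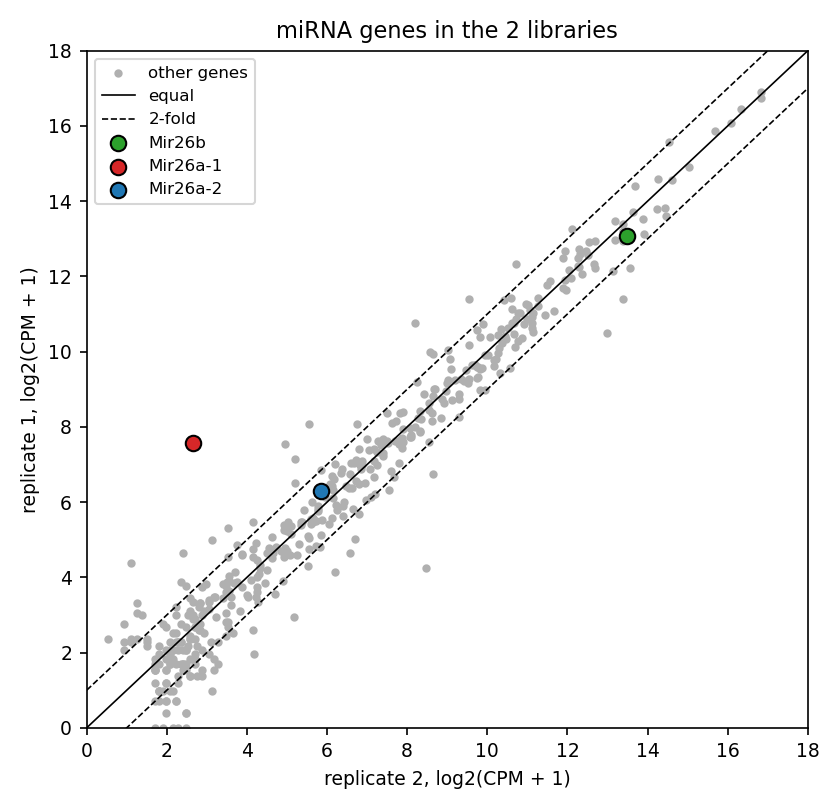
Each of the 459 genes is a point at its log2(CPM + 1) in replicate 2 (horizontal) and replicate 1 (vertical), with lines for equal levels and for a 2-fold difference. Mir26b and Mir26a-2 lie between the 2-fold lines, and Mir26a-1 lies farther above them than any other point.

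The sequence table held both hairpins of 16 pairs of genes that, like Mir26a-1 and Mir26a-2, share 1 identical mature arm, have a different other arm, and reach 10 counts in at least 1 library. For Mir26a the log2 ratios of the copies lay 4.72 apart. Over the other 15 pairs that gap ran from 0.02 to 2.03, with a median of 0.39. The same copy was the higher one in both libraries in 14 of those 15 pairs, the exception being Mir29b-1 and Mir29b-2. The largest other gap was that of Mir3070a and Mir3070b, both named after their values were seen. In 4 of the 15 pairs the shared run was as long as that of Mir26a or longer, at 25 bases or more from the arm start. One of these was the pair Mir24-1 and Mir24-2, whose shared run also has 25 bases and whose log2 ratios were -0.18 and -0.77. The pairs were compared on the contrast the family was chosen for, so the comparison carries no test.

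**Figure D5:**
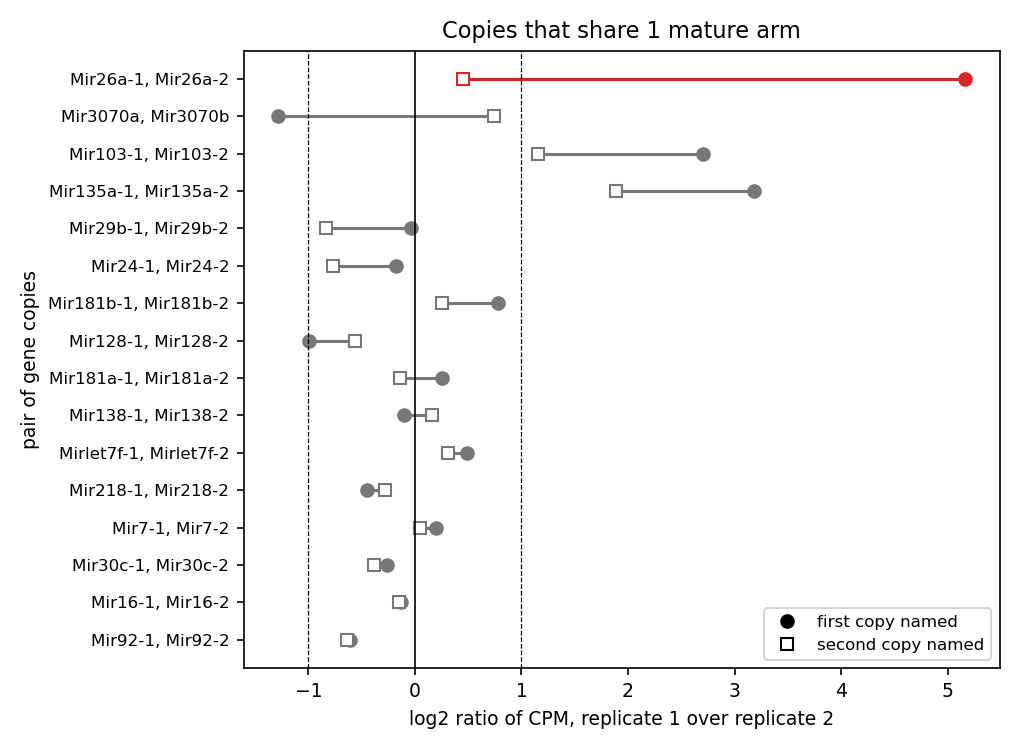
For 16 pairs of copies that share 1 mature arm, the log2 ratio of replicate 1 over replicate 2 (horizontal axis) is shown for the first copy (filled) and the second (open), joined by a line, with dashed lines at 2-fold. The line of Mir26a-1 and Mir26a-2 is the longest, from 5.17 to 0.45.

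Genes with and without a shared arm were also set side by side. Sequences were matched for 324 of the 384 genes with at least 10 counts in each library, or 84.4%. Of these, 281 shared no arm and had a median of 125 CPM, and 37 shared an arm but also had one of their own, with a median of 99.2 CPM. With a minimum of 1 count in each library that order turned, at 10.7 and 72.7 CPM. More than 2-fold between libraries were 37 of the 281 genes, 13.2%, and 5 of the 37, 13.5%, Mir26a-1 among the latter. A further 6 genes had every listed arm in common with another gene, and 0 of them were past 2-fold. Over all 384 genes the share was 12.2%.

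By level in both libraries, the genes nearest to Mir26b were Mir330, Mir191 and Mir23a, at distances of 0.10 to 0.18 on the log2(CPM + 1) scale. Those nearest to Mir26a-2 were Mir7-1, itself a copy with a shared arm, Mir410 of the imprinted Dlk1-Dio3 cluster and Mir211 of a Trpm1 intron, at 0.19 to 0.29. Mir26a-1 had no such close companion. Its nearest genes were Mir200c, Mir135a-2 and Mir34b, at 2.30, 2.42 and 2.58. Mir200c, a marker of epithelia, had 185 CPM in replicate 1 and 29.7 CPM in replicate 2. Mir34b, typical of ciliated cells, had 43.4 and 16.7 CPM. The likeness rests on 2 libraries only. For Mir26a-1 it uses the same 2 values the family was chosen by, so it is a description and no support for a shared cell type.

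Most markers on the epithelial list and some on the choroid plexus list were also more than 2-fold higher in replicate 1, the library with more Mir26a-1. Of 8 genes on the epithelial and sensory list all reached 10 counts in either library, and 7 were more than 2-fold higher in replicate 1, against 8.28% of all genes. Summed over the list, replicate 1 had 801 CPM and replicate 2 had 201. Its leading genes Mir183, Mir200c, Mir429 and Mir182 had 270.1, 185, 141 and 89.9 CPM in replicate 1 and 45.5, 29.7, 35.6 and 35.6 CPM in replicate 2. Mir200b, the gene not past 2-fold, had a ratio of 1.31. In replicate 2 Mir141 and Mir96 had only 5 and 6 counts. Mir183, Mir96 and Mir182 form a cluster, so genes of the list are not independent of each other. The choroid plexus and ependyma list summed to 2993 and 1095 CPM, most of the difference in Mir34c. Of its 4 genes with enough counts 2, Mir34c and Mir34b, were more than 2-fold higher in replicate 1, while Mir204 and Mir449a had ratios of 1.54 and 1.30. Its leading genes were Mir34c at 1747 and 292 CPM, Mir204 at 1148 and 744 CPM, Mir449a at 54.8 and 42.0 CPM, and Mir34b. Of its other genes Mir449b had 0 counts in both libraries and Mir449c had 0 and 1. The part of these cells in the level of Mir26a-1 was not tested, and in bulk tissue fewer cells of a type and less RNA per cell cannot be told apart.

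The other marker lists had 0 genes past 2-fold among those with enough counts, against 21.8% of all 459 genes. Outside the neuronal list each had only 1 to 3 such genes, too few to set apart from that share. Neuronal markers, led by Mir132 at 21687 and 13106 CPM, Mir128-1 at 4545 and 9069 CPM, Mir137 at 4757 and 6655 CPM and Mir138-1 at 2096 and 2244 CPM, had 7 genes with enough counts. Of these, Mir132 was higher in replicate 1 and the other 6 were higher in replicate 2. Most of the 459 genes were also higher in replicate 2, with a median log2 ratio of -0.10. The median of the 7 neuronal genes was -0.45, with Mir138-1 at -0.10. Mir128-1 and Mir128-2 share a mature arm, as do Mir218-1 and Mir218-2. Oligodendrocyte markers summed to 6799 and 6685 CPM, microglial and myeloid markers to 462 and 481 CPM, and those of smooth muscle and pericytes to 8170 and 6864 CPM. Red blood cell markers summed to 67.3 and 61.2 CPM, and the liver marker Mir122 had 28.4 and 38.4 CPM. Striated muscle markers summed to 34.1 and 35.9 CPM, with 4 of 6 genes at 0. Those 4 are the numbered copies Mir1a-1, Mir1a-2, Mir133a-1 and Mir133a-2. Reads at several genomic positions are not among these counts, so their 0 does not show that the mature miRNAs are absent. The endothelial marker Mir126a had 12521 and 22475 CPM, higher in replicate 2 as Mir26b was, and Mir126b was at 0.

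Among miRNAs of the REST circuit, in which the Ctdsp phosphatases act, Mir29a and Mir132 were of the order of Mir26b or above. By assigned counts, the other listed genes lay far below. Of these, Mir29b-1, Mir9-1, Mir9-2 and Mir9-3 share an arm with another gene, and the Mir124a genes are copies of each other. Mir212 shares no arm, and neither do Mir29a and Mir132. Reads at several genomic positions are not among these counts, so low counts of such copies do not show that their mature miRNAs are scarce. In that list 6 of 10 genes had at least 10 counts in each library, against 17.4% of all annotated genes. Mir29a had 14546 CPM in replicate 1 and 22255 CPM in replicate 2. Mir132, a target gene of CREB and of REST, led the list in replicate 1. Mir212, from the transcript of Mir132, had 337 and 236 CPM, and Mir29b-1 had 67.6 and 69.4 CPM. Mir9-3 had 58.7 and 53.7 CPM, Mir9-1 had 25.2 and 27.6 CPM, and the Mir124a genes held at most 8 counts in a library. The list had 7 genes with at least 10 counts in either library, of which 1 was past 2-fold, Mir9-2 with 10 and 4 counts, against 21.8% of all 459 genes. Their median log2 ratio of 0.13 stands beside -0.10 for all 459 genes.

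Other miRNAs in introns of paralogous hosts, a layout like that of the miR-26 genes, were taken as a list. Of 12 listed genes 9 had at least 10 counts in each library, against 17.4% of all annotated genes. Mir128-1 and Mir128-2, in introns of R3hdm1 and Arpp21, had 4545 and 1116 CPM in replicate 1 and 9069 and 1649 CPM in replicate 2. Mir107, in a pantothenate kinase gene as are its relatives Mir103-1 and Mir103-2, had 2775 and 1535 CPM. Mir103-1 had 28 and 6 counts and Mir103-2 had 88 and 55, the 2 genes of 10 with enough counts that were past 2-fold, both higher in replicate 1. That count is near the share of 21.8% over all 459 genes. Mir204, in an intron of Trpm3, is also on the choroid plexus list. The median log2 ratio of the 10 genes was 0.17.

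Other miRNAs known to repress Ezh2, a target shared with miR-26, had at least 10 counts in each library in 4 of 4 cases, against 17.4% of all annotated genes. Mir138-1 had 2096 and 2244 CPM and Mir138-2 had 1742 and 1561 CPM in replicates 1 and 2. Mir101b had 1046 and 516 CPM, the 1 gene of 4 past 2-fold, against 21.8% of all 459 genes, with a log2 ratio of 1.02, and Mir101a had 170 and 111 CPM. By assigned counts, each of these 4 genes lay below Mir26b and above Mir26a-2 in both libraries.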

How the data were processed

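The authors deposited 1 table of raw read counts per library, with 4 summary lines (unmapped, multimapping, unassigned and ambiguous reads) and 3 columns, read here as unstranded, annotated-strand and opposite-strand counts; the column used is the stranded one with the larger total. Build mm10 and annotation M21 are named in the deposited notes. The aligner is not stated in the sources used here. The summary lines, 68.5% and 65.7% of reads in replicates 1 and 2, stayed out of library sizes. Their counts were compared to see whether they could be copies of 1 library (chi-square per degree of freedom 375 over 501 genes, against counting noise alone), and they were kept as the 2 samples the labels give. CPM, ratios and exact binomial intervals were computed with Python 3.11.15, numpy 2.4.6, scipy 1.17.1 and pandas 2.3.3, and the ratio intervals were tested on simulated counts. In ratios a count of 0 was set to 3 counts. Figures used matplotlib 3.10.9. Scaling alternatives used edgeR 4.0.16 and DESeq2 1.42.0 in R 4.3.3. Sequences were matched by symbol for 954 of 2202 genes (43.3%), so shares by arm class were given only among genes with at least 10 counts in each library, and pairs of copies with at least 10 counts in either library. The table is not complete, and some shared arms may be missed.

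The members and lists were chosen with earlier results of these data known. Named are the 3 members, the 3 nearest genes of each by Euclidean distance of log2(CPM + 1), and the 4 leading genes of each list. Further genes are named where a list or a comparison would be incomplete without them. With 1 group of 2 libraries no test between conditions was possible.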

Additional observations from a re-analysis of the deposited data

How the results depend on the processing

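With the counts scaled to all reads of a library, Mir26a-1 averaged 30.6, Mir26a-2 22 and Mir26b 3327 reads per 1e6, because the denominator also holds reads of the summary lines. The log2 ratio of Mir26b was -0.38 with edgeR TMM scaling, -0.35 with DESeq2 size factors, -0.53 over all reads and -0.43 without regard to strand, in the same direction each time but outside its narrow counting interval. The log2 ratio of Mir26a-1 was 4.24 with 5 CPM added, by construction of the addition, and 5.04 to 5.22 under the other scalings and with 0.5 CPM added. Mir26a-1 had the widest ratio under each of these scalings and count minimums. With a minimum of 100 counts 34 genes were more than 2-fold apart, and with a minimum of 1 count 257, as fewer or more low genes entered. Because a count of 0 was set to 3 counts, Mir1912, with 0 and 1 counts, passed 2-fold at a log2 ratio of 2.07. The 257 therefore include genes that pass only through that setting, and these were not counted apart. Left to a single library, the level ran from 5.25 to 189 CPM for Mir26a-1, from 56.9 to 77.8 for Mir26a-2 and from 8666 to 11445 for Mir26b. With a pseudocount of 5 CPM, 2 of the 3 genes nearest to Mir26a-1 were the same. At 1 count in each library, genes with no shared arm had a median of 10.7 CPM and genes with some arms shared 72.7 CPM, the reverse of the order at 10 counts (125 and 99.2 CPM). Depth limits Mir26a-1 most, with 23 counts in replicate 2. No paired analysis was possible because there is 1 group.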
